A study of Mus musculus with 14 samples.

Results

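Keratins are the intermediate filament proteins of epithelial cells, and 10 keratin genes were followed here across normal and obstructed mouse kidney. The 10 genes were chosen by name, to set the keratins of simple epithelium (Krt7, Krt8, Krt18, Krt19, Krt20 and Krt23) beside those of basal and stratified epithelium (Krt5, Krt14, Krt15 and Krt17). They are 10 of the 53 protein-coding keratin genes among the 47729 genes counted in each library. The data are 14 poly(A) RNA sequencing libraries from whole kidney. Of the wild-type libraries, 3 came from untreated kidney (WT normal) and 4 from kidney after 7 days of unilateral ureteral obstruction (WT UUO), a surgical model in which blocked urine outflow distends the kidney and leads to tubular injury and fibrosis. The same 2 states were sampled from mice labelled SMOC2 Transgenic, with 3 untreated (SMOC2 normal, numbered 1, 3 and 4) and 4 obstructed libraries (SMOC2 UUO). SMOC2 is a secreted matricellular protein. The labels give no promoter for the transgene, no age and no identifier of the animals, so p-values measure only the spread between these libraries. One protocol field describes a folic acid injection in male Balb/c mice, which the titles, treatment labels and design text do not mention, so groups follow the titles.

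Total counts ranged from 19483994 to 30033405 per library. Smoc2 itself was not higher in the libraries labelled transgenic: it averaged 25.2 ± 16.1 CPM (counts scaled to library size; SD, n = 3) in WT normal, 21.8 ± 9.66 (n = 3) in SMOC2 normal, 146.9 ± 11.4 (n = 4) in WT UUO and 96.1 ± 18.5 (n = 4) in SMOC2 UUO. The counts therefore do not show the overexpression that the label names, and the groups are called SMOC2-labelled throughout. The kidney label was met by proximal tubule genes, whose 10 listed markers summed to between 21141 and 26238 CPM in the 6 normal libraries and between 1555 and 4058 CPM in the 8 obstructed ones. WT UUO library 1 and SMOC2 UUO library 2 stood apart in markers of urothelium, the lining of the renal pelvis and ureter, with sums over 10 markers of 327.2 and 167.0 CPM where the other obstructed libraries had between 31.8 and 76.1 CPM. Fitted changes of keratins that rest on these libraries are given with and without them.

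Keratins form obligate heteropolymers, in which a type I chain pairs with a type II chain. Simple epithelia such as the kidney collecting duct use the pair of Krt8 (type II) and Krt18 (type I), with Krt7 (type II) and Krt19 (type I) added in ducts. Krt20 is the type I keratin of the intestinal lining and of urothelial umbrella cells. Basal cells of stratified epithelia and urothelium carry Krt5 (type II) with Krt14 (type I) or Krt15 (type I), and Krt17 (type I) is known as a keratin of wounded and stressed epithelium. Keratins 8, 18, 19 and 20 are known to be induced in injured kidney tubules.

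The genes lie in 2 clusters. On chromosome 11, between 99232761 and 100269871 (GRCm38), 27 keratin genes include 6 of the 10, all type I and all on the minus strand: Krt20 (ENSMUSG00000035775, chr11:99428403-99438150), its neighbour Krt23 (ENSMUSG00000006777, chr11:99477974-99493137), Krt15 (ENSMUSG00000054146, chr11:100131758-100135928), Krt19 (ENSMUSG00000020911, chr11:100140810-100148665), Krt14 (ENSMUSG00000045545, chr11:100203162-100207548) and Krt17 (ENSMUSG00000035557, chr11:100256217-100261029). On chromosome 15, between 101347444 and 102032027, 26 keratin genes include the other 4: Krt7 (ENSMUSG00000023039, plus strand, chr15:101411043-101430313), Krt5 (ENSMUSG00000061527, minus strand, chr15:101707070-101712898), Krt8 (ENSMUSG00000049382, minus strand, chr15:101996698-102004482) and Krt18 (ENSMUSG00000023043, plus strand, chr15:102028180-102032027). Krt18 is the type I exception in the type II cluster, and its start lies 23698 bases from that of Krt8. Most of the 2 clusters was silent or nearly so in kidney: 9 of 27 and 7 of 26 genes passed the filter on low counts, and 13 genes had no count in any library.

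Promoters are shown for 3 of the genes because they differ most in what follows: Krt20, which had the largest rise in wild-type kidney, Krt23, a gene close by, which did not pass the test, and Krt7, which had the smallest change among the genes that rose. The sequences are the 250 bases before the RefSeq start (GRCm38.p6), written 5′ to 3′ in the direction of the gene. Capitals mark GGAATG on either strand (the MCAT element bound by TEAD factors), TATAAA on the gene's strand or its reverse (a TATA box), and GGGCGG on either strand (a GC box). The window of Krt20 is chr11:99438154-99438403, that of Krt23 is chr11:99493121-99493370 and that of Krt7 is chr15:101412153-101412402.
Krt20: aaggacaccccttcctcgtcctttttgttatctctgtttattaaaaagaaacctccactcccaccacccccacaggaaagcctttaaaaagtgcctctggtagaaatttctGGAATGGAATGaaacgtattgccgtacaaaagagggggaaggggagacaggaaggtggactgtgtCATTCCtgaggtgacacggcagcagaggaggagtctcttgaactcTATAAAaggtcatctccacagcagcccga
Krt23: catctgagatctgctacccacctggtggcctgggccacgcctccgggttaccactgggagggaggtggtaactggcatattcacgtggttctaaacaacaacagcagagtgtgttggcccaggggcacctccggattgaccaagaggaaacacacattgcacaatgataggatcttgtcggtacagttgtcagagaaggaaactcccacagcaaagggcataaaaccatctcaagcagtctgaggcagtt
Krt7: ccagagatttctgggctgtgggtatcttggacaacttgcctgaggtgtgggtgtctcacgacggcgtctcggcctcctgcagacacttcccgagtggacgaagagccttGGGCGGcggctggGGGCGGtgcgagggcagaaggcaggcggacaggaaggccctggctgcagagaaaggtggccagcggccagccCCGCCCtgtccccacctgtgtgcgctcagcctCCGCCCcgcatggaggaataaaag

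The Krt20 window holds GGAATG 3 times, with first bases at -139, -134 and -74 from the start, the first 2 overlapping by a base, and TATAAA at -29. Of 32536 RefSeq windows of this length, 12.6% hold GGAATG at least once and 0.0891% at least 3 times, and 12.3% hold TATAAA. The search for GGAATG was added after the Krt20 window had been read, so its count there is a description. The Krt7 window holds GGGCGG 4 times, at -141, -128, -56 and -24, where 33.0% of windows hold it at least once and 4.12% at least 4 times. The window of Krt14 holds GGAATG once. The AP-1 motif (TGA and TCA on either side of any 1 base, both strands), present in 6.73% of all windows, was in none of the 7 windows at hand, and the windows of Krt23, Krt5, Krt8 and Krt18 held none of the 4 motifs. The RefSeq starts of Krt7, Krt23, Krt14, Krt8 and Krt18 lie inside the gene as GENCODE M21 annotates it, so their windows are not upstream of all annotated transcripts. Promoters of Krt15, Krt17 and Krt19 were not used here.

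After obstruction 9 of the 10 keratins rose in wild-type kidney, and 9 of the 10 in SMOC2-labelled kidney (edgeR quasi-likelihood test, Benjamini-Hochberg adjusted p under 0.05 over 17926 genes). The exception in both was Krt23. As background, 31.3% of all tested genes rose in wild-type kidney and 32.5% in SMOC2-labelled kidney. Both responses are read against untreated controls of their own genotype, so they share no library. The changes spanned a wide range: Krt7 and Krt8, already abundant, rose 1.56-fold and 2.54-fold in wild type, Krt18 rose 6.86-fold and Krt19 13.6-fold, and Krt20, barely counted in normal kidney, reached a mean of 28.7 CPM. The median log2 change of the 10 was 3.27 in wild type and 5.14 in SMOC2-labelled kidney, beside 0.05 and 0.04 over all genes tested, and it was 2.53 and 4.77 without WT UUO library 1 and SMOC2 UUO library 2. The groups did not overlap for 8 of 10 genes in wild type (Krt15 and Krt23 overlapped) and for 9 of 10 in SMOC2-labelled kidney, where 31.3% and 32.6% of all genes lay higher without overlap. All 10 passed the filter on low counts. Krt17 (both genotypes), Krt20 (wild type), and Krt14 and Krt15 (SMOC2-labelled) reached the filter's level (about 0.423 CPM) in no normal library. Their calls there, and the counts and medians over the 10, are therefore descriptions. In bulk tissue, more cells of a keratin-bearing type and more keratin RNA per cell cannot be told apart.

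**Figure D1:**
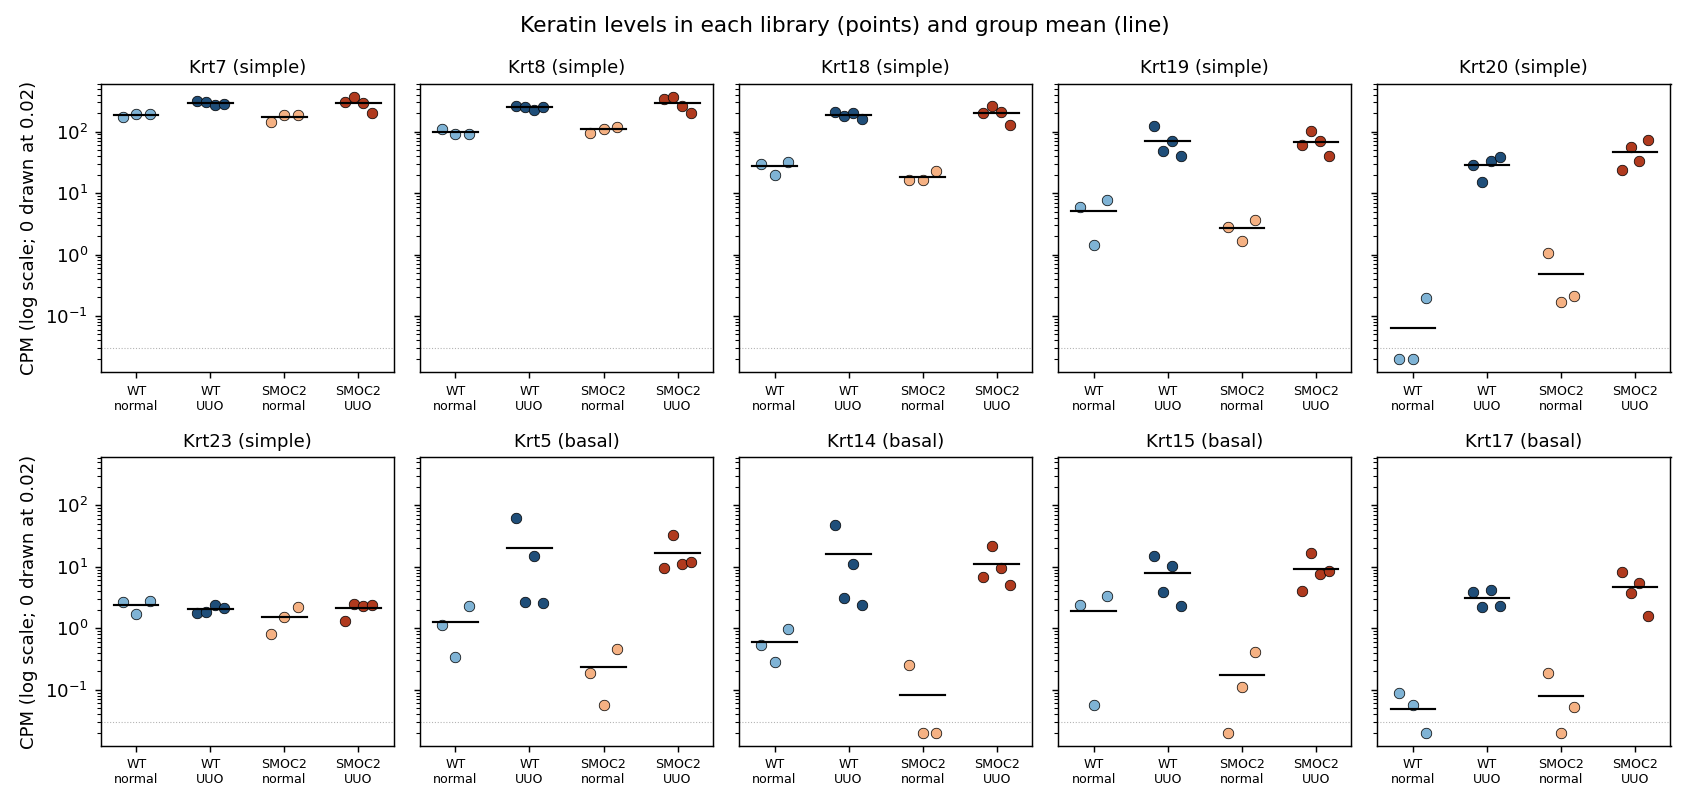
Level of each keratin in CPM (log axis, a count of 0 drawn at 0.02) in each of the 14 libraries, with 1 point per library and a line at the group mean. The obstructed libraries lie above the normal ones for all genes but Krt23 and, in wild type, Krt15. Within WT UUO, Krt5 (from 2.61 to 61.8 CPM) and Krt14 spread most.

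Among the simple-epithelial keratins, Krt8, the type II chain of the main pair, was at 109.3, 92.2 and 92.7 CPM in WT normal libraries 1 to 3. In WT UUO libraries 1 to 4 it was at 261.6, 256.0, 228.5 and 249.4 CPM. All obstructed libraries were above all normal ones, with a log2 change of 1.34 ± 0.17 (SE; adjusted p = 1.02e-05, edgeR). In SMOC2-labelled kidney Krt8 was at 95.2, 111.1 and 120.0 CPM in the normal libraries and 334.8, 369.7, 258.3 and 204.5 CPM in the obstructed ones, a log2 change of 1.42 ± 0.17 (adjusted p = 5.56e-06, edgeR). The obstructed SMOC2-labelled libraries varied 1.81-fold among themselves, with library 4 the lowest, while the wild-type ones varied 1.14-fold.

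Krt18, the type I partner of Krt8, started lower and rose further. It was at 30.0, 19.5 and 32.2 CPM in WT normal and at 205.5, 182.4, 201.8 and 158.2 CPM in WT UUO, a log2 change of 2.78 ± 0.24 (adjusted p = 3.14e-07, edgeR). In SMOC2 normal it was at 16.5, 16.2 and 22.9 CPM and in SMOC2 UUO at 201.1, 264.4, 206.3 and 129.7 CPM, a log2 change of 3.43 ± 0.25 (adjusted p = 6.53e-08, edgeR). Neither genotype had an overlap between states, and the lowest obstructed library exceeded the highest normal one severalfold.

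Krt7, the ductal type II keratin, changed least of the genes that rose. It was at 172.1, 194.8 and 195.9 CPM in WT normal and at 320.5, 301.4, 269.0 and 283.3 CPM in WT UUO (log2 change 0.65 ± 0.16, adjusted p = 0.00342, edgeR). In SMOC2 normal it was at 142.8, 187.3 and 186.2 CPM and in SMOC2 UUO at 308.6, 364.7, 296.2 and 201.2 CPM (log2 change 0.77 ± 0.16, adjusted p = 9.80e-04, edgeR). SMOC2 UUO library 4, the lowest, lay just above the highest normal library. Krt7 shares exonic bases with an antisense gene, Gm671, and Krt8 with a lincRNA, Gm36026. Neither gene has a row of its own in the tables, and the strand setting of the counting is not given in the sources used here.

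Krt19, a type I keratin that is unusual in lacking the tail domain, was at 5.995, 1.45 and 7.71 CPM in WT normal and at 124.0, 47.6, 69.5 and 40.5 CPM in WT UUO (log2 change 3.76 ± 0.53, adjusted p = 2.91e-05, edgeR). In SMOC2 normal it was at 2.82, 1.66 and 3.64 CPM and in SMOC2 UUO at 60.7, 103.8, 70.9 and 40.2 CPM (log2 change 4.66 ± 0.58, adjusted p = 8.17e-06, edgeR). The highest value in each obstructed group was in the library with the most urothelial RNA, yet every other obstructed library also exceeded the highest normal one. Without both of those libraries the log2 changes were 3.33 and 4.39.

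In wild type Krt20 came closest to a switch from off to on. WT normal libraries 1 and 2 had no count and library 3 had 5 counts (0.195 CPM), while WT UUO had 28.3, 15.3, 33.0 and 38.0 CPM. A count of 0 allows up to 3 counts, which is 0.132 and 0.168 CPM in those 2 libraries. Over the summed counts of each group the ratio was 372, with a 95% counting interval from 159 to 1147 that covers counting error only. Krt20 reached the filter's level in no WT normal library, so its call in wild type is a description. The fitted log2 change was 8.48 ± 0.80 (adjusted p = 7.21e-07, edgeR). It became 12.43 without WT normal library 3, when all normal counts are 0 and the value is set by the fit's prior. In SMOC2 normal Krt20 was at 1.06, 0.166 and 0.208 CPM and in SMOC2 UUO at 23.5, 57.3, 33.8 and 73.1 CPM (log2 change 6.67 ± 0.64, adjusted p = 7.66e-07, edgeR; 7.92 without SMOC2 normal library 1). The libraries highest in Krt20 were not those highest in urothelial RNA but WT UUO 4, which had the lowest urothelial sum of its group (31.8 CPM), and SMOC2 UUO 4, with a urothelial sum of 60.0 CPM. In SMOC2 UUO, though, library 4 had the next largest urothelial sum after library 2 (167.0 CPM). Library 2 in turn had the next highest Krt20 after library 4.

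Krt23, a type I keratin of little-known function, did not pass the test in either genotype. It was at 2.69, 1.68 and 2.80 CPM in WT normal and at 1.80, 1.85, 2.37 and 2.14 CPM in WT UUO, with a log2 difference of -0.24 (95% interval -0.90 to 0.42, adjusted p = 0.523, edgeR). In SMOC2 normal it was at 0.814, 1.55 and 2.24 CPM and in SMOC2 UUO at 1.34, 2.50, 2.33 and 2.39 CPM, with a log2 difference of 0.46 (95% interval -0.23 to 1.15, adjusted p = 0.226, edgeR). The normal and obstructed libraries overlapped in both genotypes, and the intervals leave out changes of the size of its neighbour Krt20.

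The 4 basal keratins started at low levels, with Krt5 below the filter's level in 3 of the 6 normal libraries. Krt14 and Krt15 each reached that level in 2 of 3 WT normal and 0 of 3 SMOC2 normal libraries, and Krt17 in no normal library. The medians by class are therefore descriptions. For the 4 basal keratins the median log2 change was 4.32 in wild type and 5.97 in SMOC2-labelled kidney, beside 2.06 and 2.43 for the 6 simple keratins. Without WT UUO library 1 and SMOC2 UUO library 2, the medians were 2.74 and 5.71 for the basal keratins and 2.01 and 2.27 for the simple ones, so the gap in wild type was much smaller.

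Krt5, the type II chain of basal cells, was at 1.15, 0.335 and 2.34 CPM in WT normal. In WT UUO it was at 61.8, 2.69, 14.9 and 2.61 CPM, so that library 1 was more than 4 times the next and libraries 2 and 4 lay only just above the highest normal library. The log2 change was 3.94 ± 1.09 (adjusted p = 0.00628, edgeR), and it was 2.35 without WT UUO library 1 and 4.72 without WT normal library 3. In SMOC2 normal Krt5 was at 0.188, 0.0555 and 0.469 CPM and in SMOC2 UUO at 9.74, 33.3, 11.2 and 12.0 CPM (log2 change 6.06 ± 1.41, adjusted p = 0.00187, edgeR), with 5.47 without SMOC2 UUO library 2 and 7.07 without SMOC2 normal library 4. The limma-voom fit did not call Krt5 in either genotype (adjusted p = 0.124 and 0.0717).

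Krt14, the type I partner of Krt5, was at 0.529, 0.279 and 0.974 CPM in WT normal and at 47.8, 3.16, 10.96 and 2.44 CPM in WT UUO, with the same order of libraries as Krt5. The log2 change of 4.69 ± 1.10 passed the test (adjusted p = 0.00207, edgeR), and it was 3.16 without WT UUO library 1. In SMOC2-labelled kidney it had 4 counts in normal library 1 (0.250 CPM) and none in libraries 3 and 4, and it was at 6.91, 22.2, 9.58 and 5.07 CPM in the obstructed libraries. The log2 change there was 7.08 ± 1.53 (adjusted p = 0.00107, edgeR), ranging from 6.47 without SMOC2 normal library 4, and 6.47 likewise without SMOC2 UUO library 2, to 11.09 without SMOC2 normal library 1, when all remaining normal counts are 0. The ratio of summed counts in SMOC2-labelled kidney was 142 (95% counting interval 55.4 to 523). No normal library there reached the filter's level, so that call is a description. The limma-voom fit did not call Krt14 in either genotype (adjusted p = 0.0701 and 0.0615).

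Krt15, a type I keratin of basal and progenitor-like epithelial cells, gave the least firm call. It was at 2.42, 0.0559 and 3.35 CPM in WT normal and at 15.0, 3.90, 10.5 and 2.27 CPM in WT UUO. WT UUO library 4 lay below 2 of the 3 normal libraries. The log2 change of 1.98 ± 0.81 (adjusted p = 0.0473, edgeR) missed the threshold with DESeq2 (adjusted p = 0.0872), with limma-voom (0.0782), with only the compared groups in the fit (0.0890), and in 8 of the 14 fits that left out a library: WT UUO 1 or 3, WT normal 1 or 2, SMOC2 normal 1 or 3, and SMOC2 UUO 3 or 4. The values of these 14 fits ran from 1.45 without WT normal library 2 to 2.61 without WT normal library 3. In SMOC2 normal Krt15 was at 0, 0.111 and 0.417 CPM and in SMOC2 UUO at 4.11, 17.0, 7.78 and 8.60 CPM, with no overlap. The log2 change there was 5.61 ± 1.15 (adjusted p = 6.87e-04, edgeR), and it was 7.20 without SMOC2 normal library 4. No SMOC2 normal library reached the filter's level, so that call is a description.

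Krt17, the wound keratin, had 3 counts in the 3 WT normal libraries together (0.0882, 0.0559 and 0 CPM) and 4 in the 3 SMOC2 normal libraries (0.188, 0 and 0.0521 CPM). It was at 3.95, 2.19, 4.21 and 2.27 CPM in WT UUO and at 8.19, 3.76, 5.37 and 1.58 CPM in SMOC2 UUO, above every normal library by more than 8 times. The ratio of summed counts was 70.2 (95% counting interval 23.8 to 342) in wild type and 66.2 (25.7 to 244) in SMOC2-labelled kidney. Krt17 passed the filter only through obstructed libraries, so its calls are descriptions. The fitted log2 changes were 5.96 ± 0.83 (adjusted p = 2.66e-05, edgeR) and 5.88 ± 0.79 (adjusted p = 1.78e-05, edgeR). They ran from 5.32 without WT normal library 3 to 6.80 without WT normal library 1 in wild type, and up to 7.22 without SMOC2 normal library 1. Unlike Krt5 and Krt14, Krt17 was highest in WT UUO library 3 and SMOC2 UUO library 1, and it varied 1.92-fold within WT UUO where Krt5 varied 23.7-fold.

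**Figure D2:**
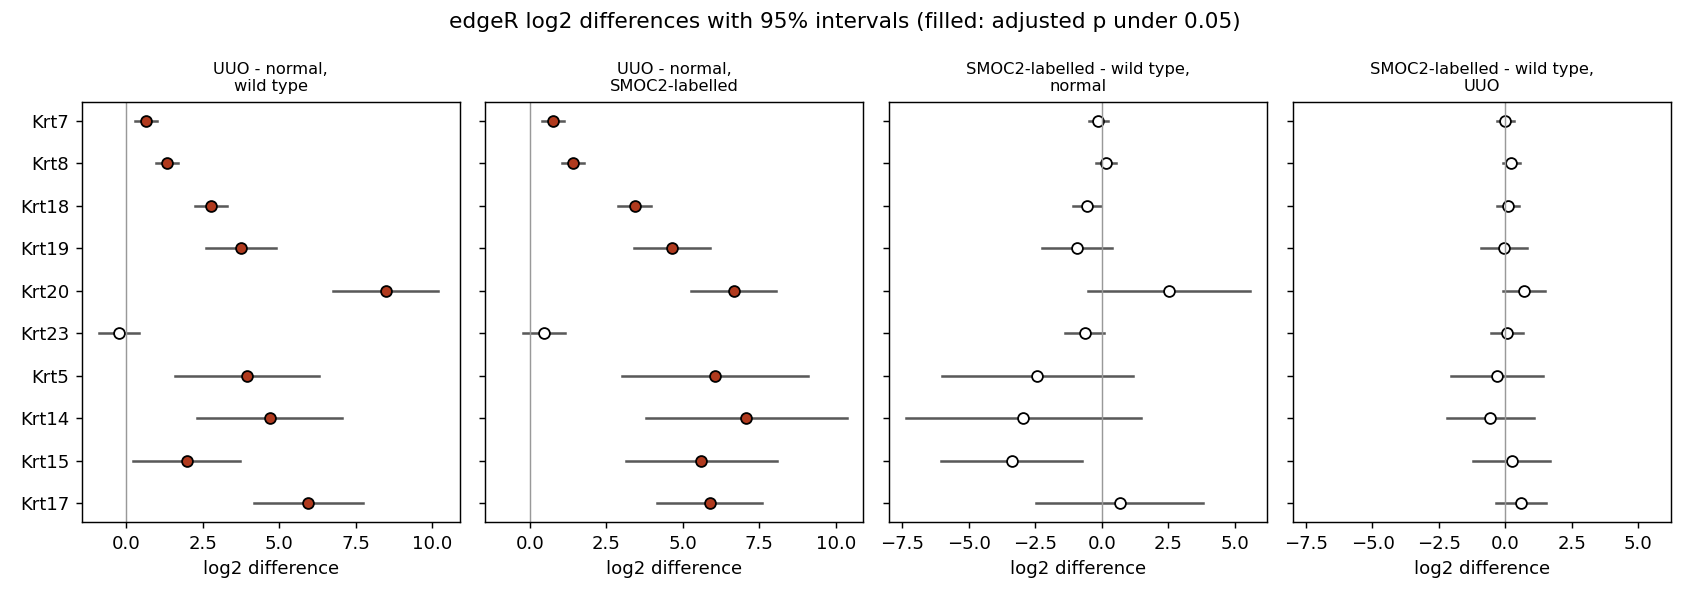
Fitted log2 differences of the 10 keratins with 95% intervals in 4 comparisons, filled where the edgeR adjusted p is under 0.05. The first 2 panels, which share an axis, show 9 filled points each (Krt23 is open), and the last 2, which share another axis, show none.

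Compared per kilobase of transcript, which allows genes to be set beside each other, the mix of these 10 keratins changed with obstruction. Krt10 and Krt80, described further below, are outside the 10 and not included. Krt10 averaged 10.6 CPM in WT normal, where Krt19 averaged 5.05 CPM. Transcript lengths were those of the principal coding transcript in GENCODE M21. In WT normal the order was Krt8 (50.1 ± 4.97 CPM per kb, SD, n = 3), Krt7 (45.8 ± 3.28), Krt18 (18.9 ± 4.73), Krt19 (3.21 ± 2.05), Krt23 (1.53 ± 0.396), Krt15 (1.14 ± 0.999) and Krt5 (0.579 ± 0.458), followed by Krt14, Krt20 and Krt17. Krt8 and Krt7 differed by about their spread, and the levels of Krt23, Krt15 and Krt5 overlapped. In WT UUO the order was Krt18 (130.1 ± 15.1, n = 4), Krt8 (127.1 ± 7.39), Krt7 (71.7 ± 5.45), Krt19 (44.7 ± 24.0), Krt20 (14.9 ± 5.05), Krt14 (9.48 ± 12.7), Krt5 (9.33 ± 12.8), Krt15 (4.65 ± 3.47), Krt17 (2.03 ± 0.693) and Krt23 (1.30 ± 0.170). Krt18 and Krt8 did not differ beyond their spread there, nor did Krt14, Krt5 and Krt15. Krt20 thus moved from place 9 to place 5 in wild type, and Krt23 from place 5 to place 10. In SMOC2-labelled kidney the first 4 places in the normal state were taken by the same genes, and after obstruction Krt8 (149.1 ± 38.1) and Krt18 (139.4 ± 38.4) led, within their spread of each other.

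The ratio of Krt8 to Krt18 per kilobase fell from between 2.11 and 3.48 in the WT normal libraries to between 0.831 and 1.16 in WT UUO, and it lay between 3.85 and 5.03 in SMOC2 normal and between 0.919 and 1.22 in SMOC2 UUO. The WT normal and SMOC2 normal groups did not overlap in this ratio, and the obstructed groups did. Summed over all 10 genes, type II chains exceeded type I chains by 3.03 to 6.02 times in WT normal and 5.34 to 7.61 times in SMOC2 normal, and the ratio was between 0.866 and 1.23 in the 8 obstructed libraries. Krt7 had the widest gap between its principal transcript (4094 bases) and its merged exons (7049 bases), and leaving it out lowered the mean ratio to 2.17 in WT normal and 0.679 in WT UUO, in the same direction. The total rose from between 98.2 and 128.0 to between 323.3 and 599.8 CPM per kb. The 4 basal keratins made up 0.0780% to 2.82% of that total in normal libraries and 1.51% to 13.1% in obstructed ones. The simple keratins thus remained the bulk of the total over these 10 genes in every library. These ratios are descriptions with no test.

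**Figure D3:**
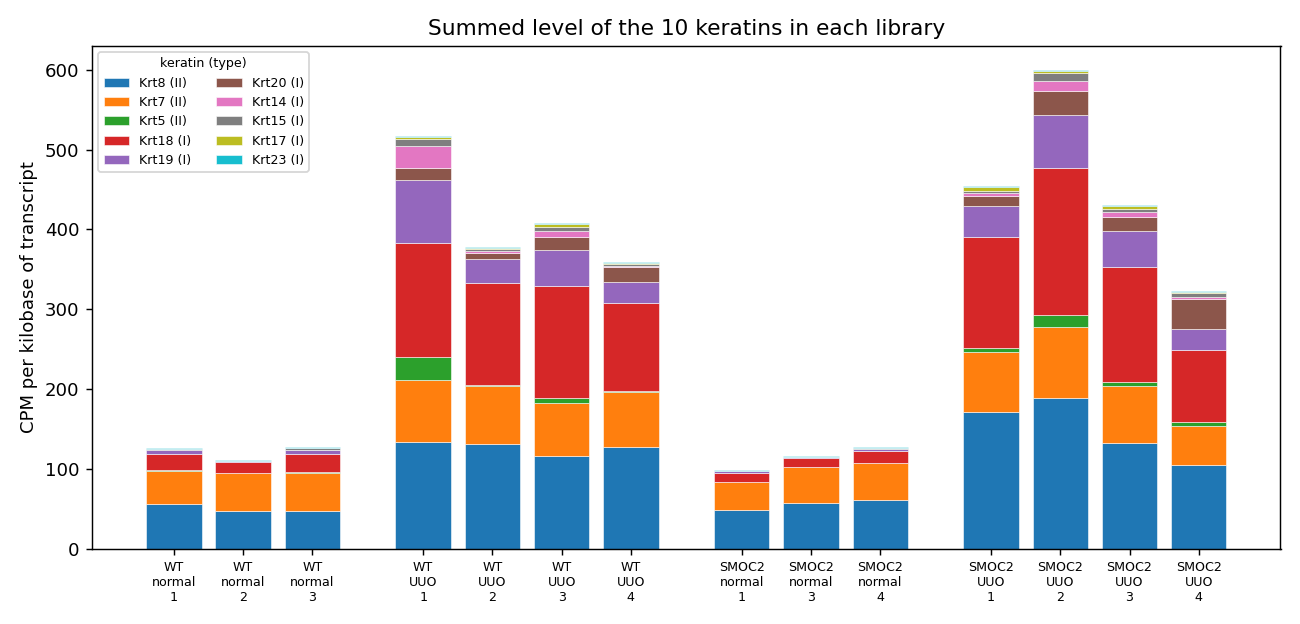
Summed level of the 10 keratins in each library in CPM per kilobase of transcript, stacked by gene with type II keratins at the bottom (Krt8, Krt7 and Krt5) and type I above. Totals are between 98.2 and 128.0 in the 6 normal libraries and between 323.3 and 599.8 in the 8 obstructed ones, and Krt18 and Krt19 take a larger part of the bar after obstruction.

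Keratins also mark cells that can be carried along with a kidney, so the levels of other cell types' markers were set beside them. Of the 10 urothelial markers, 4 rose in wild type and 7 in SMOC2-labelled kidney (edgeR), where 31.3% and 32.5% of all genes rose. The median log2 changes over the 10 were 1.75 and 2.37. Upk1b, a uroplakin of the umbrella cell membrane, was at a log2 change of 2.97 in wild type (adjusted p = 0.0182, edgeR). It overlapped between states, with 0.279 to 6.19 CPM in WT normal and 5.98 to 73.7 CPM in WT UUO. These fits include WT UUO library 1 and SMOC2 UUO library 2, and marker values without them are not given. The summed level of the 10 markers ranged from 10.9 to 59.8 CPM in WT normal and 31.8 to 327.2 in WT UUO. It ranged from 15.7 to 22.1 in SMOC2 normal and 49.7 to 167.0 in SMOC2 UUO. In both obstructed groups 7 of the 10 keratins (Krt5, Krt7, Krt8, Krt14, Krt15, Krt18 and Krt19) were highest in the library with the largest urothelial sum. The share of all genes highest there was not computed, so this count is a description. In WT UUO the highest value was 7.03 and 6.77 times the group median for Krt5 and Krt14, and 2.08 and 2.12 times for Krt15 and Krt19. For Krt7, Krt8 and Krt18 the lead was narrow, at 1.10, 1.04 and 1.07 times in WT UUO and 1.21, 1.25 and 1.30 times in SMOC2 UUO. The WT normal libraries, whose urothelial sums differed, had the same order of Krt5, Krt14, Krt15, Krt18, Krt19 and Krt23 as of that sum, lowest in library 2 and highest in library 3.

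Taken as a percentage of the urothelial sum in the same library, Krt5 was at 2.91 to 3.91 in WT normal and 6.24 to 19.6 in WT UUO, and at 0.336 to 2.12 in SMOC2 normal and 19.6 to 20.5 in SMOC2 UUO. Krt14 was at 1.34 to 2.56 and 7.33 to 14.6 in wild type, and at 0 to 1.59 and 8.45 to 17.5 in SMOC2-labelled kidney. Krt19 was at 12.9 to 15.2 and 37.9 to 127.4 in wild type, and at 10.1 to 17.9 and 62.2 to 129.5 in SMOC2-labelled kidney. The ranges of these 3 genes did not overlap between normal and obstructed kidney. Nor did those of Krt17 and Krt20, with few normal counts, in either genotype. In SMOC2-labelled kidney Krt15 did not overlap either (0 to 1.89 against 8.27 to 14.3). Krt15 overlapped in wild type (0.513 to 6.16 against 4.58 to 13.8), and so did Krt18 (53.8 to 178.5 against 62.8 to 497.6), Krt8 (154.9 to 846.2 against 80.0 to 784.1) and Krt7 (327.5 to 1787 against 97.9 to 891.0). In SMOC2-labelled kidney Krt7 was lower after obstruction by this measure (843.2 to 1133 against 218.4 to 621.2), Krt8 overlapped (543.4 to 672.1 against 221.3 to 674.1) and Krt18 was higher (98.0 to 105.2 against 158.3 to 404.9). Krt23 overlapped in wild type (4.69 to 15.4 against 0.549 to 6.72) and was lower in SMOC2-labelled kidney (5.18 to 10.1 against 1.49 to 4.26). The share of all genes without overlap by this measure was not computed, so these ranges are descriptions. Leaving out WT UUO library 1 and SMOC2 UUO library 2 together, 8 and 9 of the 10 keratins were called, Krt15 in wild type being lost (adjusted p = 0.139, edgeR), and the log2 changes were 2.33 for Krt5 and 3.14 for Krt14 in wild type. The part that urothelial RNA has in the keratin changes was not tested beyond these values.

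**Figure D4:**
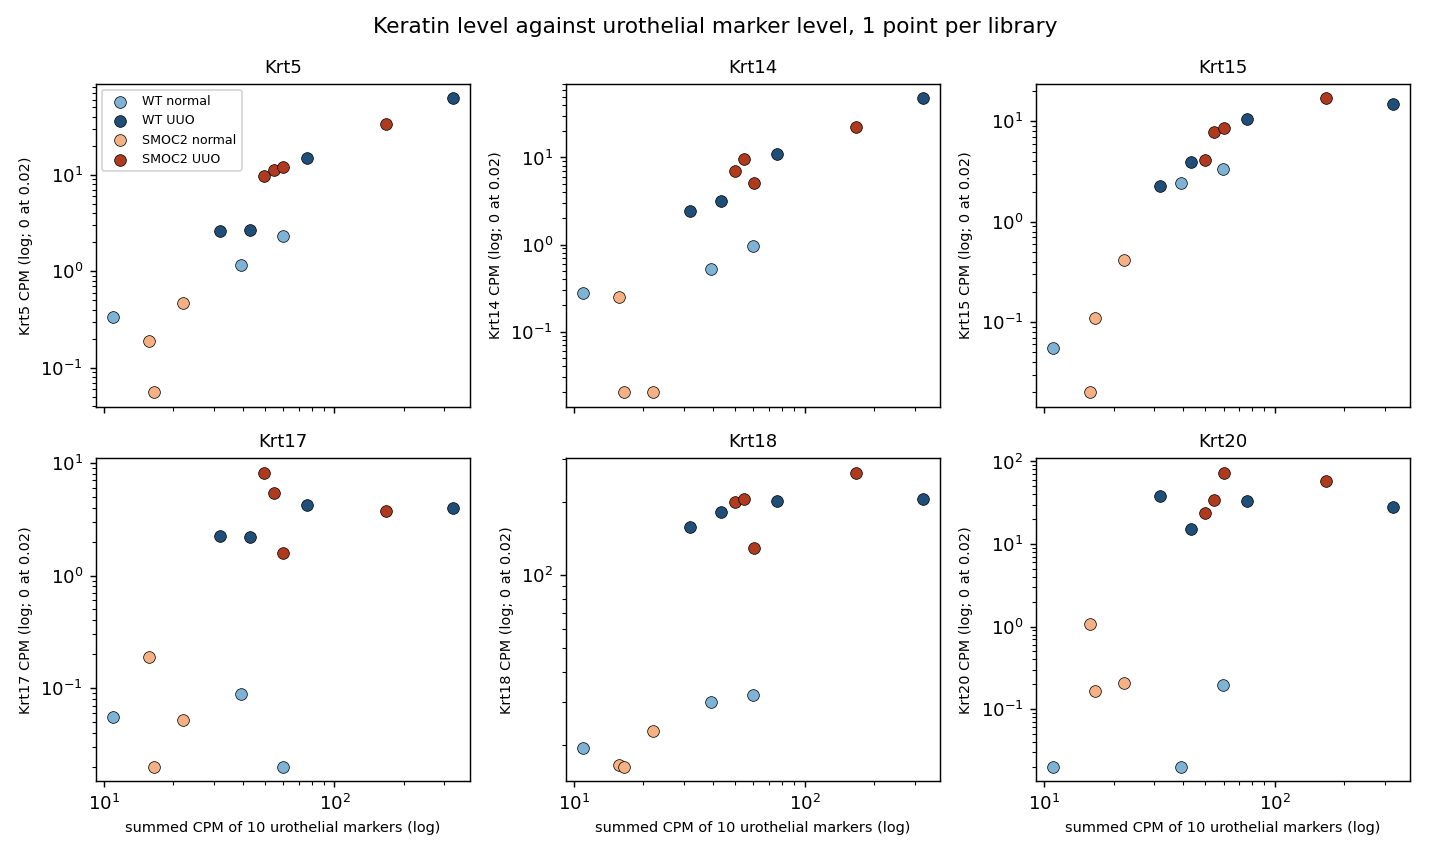
Level of 6 keratins (CPM, log axis, 0 drawn at 0.02) against the summed CPM of 10 urothelial markers (log axis), 1 point per library, coloured by group. Krt5, Krt14 and Krt15 are highest in the libraries with urothelial sums of 167.0 and 327.2 CPM, and Krt18 is highest there within each obstructed group. Krt17, Krt18 and Krt20 separate obstructed from normal libraries at similar sums. So do Krt14 and, narrowly, Krt5 (lowest obstructed library 2.61 CPM, highest normal library 2.34 CPM).

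The other cell type lists moved as follows. Of the 8 listed markers of cornified skin, Krt2 had no count in any library, Krt1 was at most 0.125 CPM, and 3 passed the filter: Krt10, which fell in both genotypes, Lor, which was not called, and Asprv1, which rose in wild type from 0.232 ± 0.186 to 0.714 ± 0.187 CPM (adjusted p = 0.0234, edgeR). The summed level of the list, most of it Krt10 (10.6 CPM on average in WT normal), was between 7.95 and 12.2 CPM in normal and between 5.47 and 8.98 CPM in obstructed libraries. The 4 listed markers of mesothelium summed to between 2.01 and 11.7 CPM in normal and between 3.77 and 16.4 CPM in obstructed libraries, with Muc16 at or below 0.0934 CPM in every library. Upk3b, which is also among the urothelial markers, had the highest mean of the 4 in each group (5.19 CPM in WT normal). Msln (mesothelin) went from 0.996 ± 0.782 to 2.74 ± 0.816 CPM in wild type (adjusted p = 0.0733, edgeR). In SMOC2-labelled kidney it went from 0.177 ± 0.182 to 3.69 ± 2.10 CPM (adjusted p = 5.38e-04, edgeR). Every SMOC2 normal library was below the filter's level for Msln (at most 0.364 CPM), so that call is a description. The part of such cells in the keratin changes was not tested. Collecting duct markers fell for 7 of 10 genes in wild type and 8 of 10 in SMOC2-labelled kidney, where 29.8% and 30.4% of all genes fell. In each genotype 1 gene, Avpr2, was called higher. Avpr2 was below the filter's level in every normal library (at most 0.313 CPM) and passed it only through obstructed ones, so its call is a description. The water channel gene Aqp2 was at a log2 change of -1.81 ± 0.48 in wild type (adjusted p = 0.00449, edgeR). All 10 proximal tubule markers fell in both genotypes, as in Lrp2 (megalin) at -3.10 ± 0.29 in wild type (adjusted p = 5.78e-07, edgeR).

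Among 14 tested genes of desmosomes and cytolinkers, which anchor keratin filaments to junctions, 5 rose and 4 fell in wild type. In SMOC2-labelled kidney 7 rose and 4 fell. The shares in wild type were near those over all genes (31.3% rose and 29.8% fell). Dsg3 and Pkp1 of this list were below the filter's level in every normal library (at most 0.353 CPM). They passed it only through obstructed libraries, so these counts are a description. The cytolinker gene Plec rose by 0.82 ± 0.12 on the log2 scale in wild type (adjusted p = 5.43e-05, edgeR), while Dst fell by 1.33 (SE 0.15, adjusted p = 3.13e-06, edgeR), Pkp4 fell by 1.23 (adjusted p = 1.36e-07, edgeR) and Perp, of desmosomes, fell by 0.75 (adjusted p = 3.38e-05, edgeR). Of 6 listed genes for proteins that bind keratins or regulate their filaments, 4 rose and 1 fell in each genotype, led by the small heat shock protein gene Hspb1, which went from 10.4 ± 3.36 to 61.9 ± 15.4 CPM in wild type and from 13.8 ± 3.90 to 133.4 ± 31.2 CPM in SMOC2-labelled kidney. Hspb1 was the single gene of these lists called between the obstructed groups, 1.11 higher on the log2 scale in the SMOC2-labelled one (adjusted p = 0.0492, edgeR). Of 14 other intermediate filament genes 10 rose and 1 fell in wild type and 13 rose in SMOC2-labelled kidney, with Vim at a log2 change of 2.61 ± 0.13 (adjusted p = 8.00e-09, edgeR).

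The median log2 changes of the 14 desmosomal genes were 0.21 and 0.35.

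Of 11 tested genes of basal and stressed stratified epithelium, 8 rose and 2 fell in wild type and 9 rose and 1 fell in SMOC2-labelled kidney. Sprr2f and Serpinb5 of this list were below the filter's level in every normal library (at most 0.0441 and 0.132 CPM). They passed it only through obstructed libraries, so these counts are a description. Sfn, the epithelial 14-3-3 sigma that binds keratin filaments, went from 1.45 ± 0.142 to 19.9 ± 8.27 CPM in wild type. Sprr1a, a cornified envelope precursor, went from 6.68 ± 6.64 to 110.5 ± 71.8 CPM. Both rose (adjusted p = 3.02e-06 and 1.22e-04, edgeR). Of 15 genes of epithelial identity, 5 rose and 2 fell in wild type, where the share that rose is near the 31.3% of all genes, and 8 rose and 2 fell in SMOC2-labelled kidney. The list was led by the tight junction gene Cldn4, from 20.6 ± 4.73 to 128.1 ± 24.0 CPM in wild type (adjusted p = 2.83e-07, edgeR). Tubular injury markers rose for 10 of 10 genes in wild type and 9 of 10 in SMOC2-labelled kidney.

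Among the 43 other keratin genes, 6 passed the filter, and 3 rose and 2 fell in wild type. The 3 that rose (Krt4, Krt12 and Krt83) were below the filter's level in every normal library and passed it only through obstructed ones, so their calls are a description. Krt10, a keratin of differentiating epidermis, and Krt80 fell: Krt10 from 10.6 ± 0.0745 to 5.46 ± 0.345 CPM (log2 change -0.96 ± 0.18, adjusted p = 2.91e-04, edgeR) and Krt80 from 11.5 ± 2.72 to 4.76 ± 1.59 CPM (log2 change -1.28 ± 0.26, adjusted p = 7.04e-04, edgeR). Both fell in SMOC2-labelled kidney too, by 0.64 and 1.38 on the log2 scale (adjusted p = 0.00602 and 3.66e-04, edgeR). The corneal keratin Krt12, whose gene (chr11:99415666-99422259) lies next to Krt20, had no count in the 6 normal libraries and 43 and 48 counts in the obstructed groups, at least 8.69-fold higher in wild type and at least 7.72-fold in SMOC2-labelled kidney against a floor of 3 counts over the group. Krt4 and Krt83 also rose in wild type, each to under 1 CPM on average. Krt10 and Krt80 were thus keratins with counts in every group that fell.

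The profiles most like each keratin's, by the smallest root mean square difference of centred log2 CPM over the 14 libraries among 15115 named genes outside the family, were Upk1b for Krt5 (0.83), Msln for Krt15 (0.91), Actg2 for Krt14 (0.96), Cxcl5 for Krt17 (0.53), Arhgap36 for Krt20 (0.76), Peg10 for Krt19 (0.50), Slc25a24 for Krt18 (0.20), Itpr3 for Krt8 (0.16), Hoxb9 for Krt7 (0.14) and G0s2 for Krt23 (0.29). Within the 10, Krt7 and Krt8 were closest (0.38), followed by Krt7 and Krt23 (0.51), Krt18 and Krt19 (0.74) and Krt5 and Krt14 (0.74). A keratin that varies little, such as Krt7, has small distances to many genes.

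Between genotypes, none of the 10 keratins passed the test in normal kidney, where 0.0279% of all genes did (5 of 17926, edgeR), or in obstructed kidney, where 0.831% did (149). At an unadjusted p under 0.05 there were 2 of the 10 in normal kidney, Krt15 and Krt18, both lower in the SMOC2-labelled group, and 0 in obstructed kidney, beside 2299 and 2716 of all genes. DESeq2 and limma-voom called none of the 10 in either state, and at an unadjusted p under 0.05 DESeq2 had 5 of the 10 in normal kidney, beside 2313 of all genes. Smoc2 itself did not pass the test in either state, and was lower in all SMOC2 UUO libraries than in any WT UUO library (log2 -0.22, adjusted p = 0.850, and -0.61, adjusted p = 0.389, edgeR). The intervals differ greatly in width. In obstructed kidney the log2 difference, SMOC2-labelled minus wild type, was 0.00 for Krt7 (95% interval -0.32 to 0.32), 0.23 for Krt8 (-0.09 to 0.55), 0.10 for Krt18 (-0.32 to 0.52), 0.71 for Krt20 (-0.09 to 1.51) and 0.59 for Krt17 (-0.35 to 1.53). The intervals of Krt5 (-2.04 to 1.42) and Krt14 (-2.20 to 1.08) span more than 3 log2 units each. No keratin was without overlap there, where 5.42% of all genes lay higher and 4.43% lower without overlap.

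In normal kidney Krt14 was the single keratin whose groups did not overlap, with 0.279 to 0.974 CPM in WT normal and at most 0.250 CPM in SMOC2 normal, where 8.01% of all genes lay lower and 8.84% higher without overlap (adjusted p = 0.571, edgeR). Krt15 was 10.5-fold lower on the fitted scale in SMOC2 normal (log2 -3.39, adjusted p = 0.311, edgeR), where the group held 10 counts, and the log2 value was -4.98 without SMOC2 normal library 4 and -2.77 without WT normal library 3. WT normal library 2 (0.0559 CPM) was as low as the SMOC2-labelled libraries. The urothelial sum was also lower there, with 15.7 to 22.1 CPM against 39.4 and 59.8 CPM in WT normal libraries 1 and 3 and 10.9 CPM in library 2.

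The difference between the 2 responses was tested as an interaction and was called for none of the 10 keratins, nor for any of 17926 genes (0% of genes, edgeR). At an unadjusted p under 0.05 there was 1 of the 10, Krt15, beside 1154 of all genes, and DESeq2 called 25 genes, 0 of them among the 10. The larger fitted responses of Krt5, Krt14, Krt15, Krt18 and Krt19 in SMOC2-labelled kidney stand beside lower mean normal levels: Krt5 averaged 1.27 ± 1.01 CPM in WT normal and 0.237 ± 0.211 in SMOC2 normal, against 20.5 ± 28.1 and 16.6 ± 11.2 after obstruction. For Krt18 the interaction was 0.66 (95% interval -0.01 to 1.32, adjusted p = 0.780, edgeR) and for Krt8 it was 0.08 (-0.42 to 0.58).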

How the data were processed

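Poly(A) RNA libraries were made with a stranded kit, per the labels' protocols. The authors deposited raw counts per gene for each library, made with STAR 2.4.1d and featureCounts 1.4.4 (Subread) on mm10, per the submitters' processing notes. The strand setting is not given in the sources used here. Gene names came from GENCODE M21 (GRCm38) by Ensembl identifier, matching 47310 of 47729 genes, and 419 unmatched genes held 0.0288% of counts. Near-identical copies can share reads: the pseudogene Krt8-ps had 269 counts over all libraries.

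Groups follow the titles. edgeR 4.0.16 in R 4.3.3 fitted all 14 libraries with TMM factors after filterByExpr (17926 genes kept, minimum count 10, a level of 0.4228 CPM), and the quasi-likelihood test was adjusted by Benjamini-Hochberg with a threshold of 0.05. CPM values use the same factors. DESeq2 1.42.0, limma-voom (limma 3.58.1), RLE and upper-quartile scaling, other filters, a replicate block, only the compared groups and leaving out libraries were alternatives. The method was tested on simulated data. Libraries of a group differed well beyond sampling noise, so none was counted as a copy.

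The 10 keratins and the gene lists were chosen with earlier results of these data known. Named genes were the keratins, other keratins past the filter, up to 4 genes per list with the smallest p in wild type, defining markers, and the genes nearest in profile. Promoters came from RefSeq (GRCm38.p6), 7 of 10 keratins matching.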

Additional observations from a re-analysis of the deposited data

Results flagged for a closer look

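With 26 groups of values checked by the gap of the extreme library relative to the range (limit 0.829 for 4 libraries), 5 stood out, where chance marks about 1 in 20 groups. The summed urothelial markers were 327.2 CPM in WT UUO library 1 and 167.0 CPM in SMOC2 UUO library 2, each far above the other libraries of its group. Krt5 was 33.3 CPM in SMOC2 UUO library 2, the same library, where the others had 9.74 to 12.0 CPM. Krt23 was 1.34 CPM in SMOC2 UUO library 1, below 2.33 to 2.50 CPM in the others. The ratio of type II to type I keratins was 1.23 in SMOC2 UUO library 1, above 0.946 to 0.968 in the other 3.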

How the results depend on the processing

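Of 1135 values of single keratins under the alternatives, 1078 kept their direction and their side of the threshold, 17 lost the call and 40 changed sign, these 40 all in comparisons between genotypes or in the interaction, where no keratin had passed the test. The cause of these changes was not tested. limma-voom called 6 keratins after obstruction in wild type and 7 in SMOC2-labelled kidney. With upper-quartile scaling the median of all genes was 0.16 and 0.15 after obstruction, in place of 0.05 and 0.04.

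Genes called between genotypes in normal kidney (5) numbered 12 with no filter, 172 with DESeq2, 9 with limma-voom and 8 with only the compared groups, and 4 to 21 leaving out a library. In obstructed kidney (149) they numbered 757, 232, 69 and 39 with DESeq2, limma-voom, the replicate block and only the compared groups, 15 without WT UUO library 1 and SMOC2 UUO library 2 (an alternative chosen after seeing the data), and 29 to 158 leaving out a library. The interaction (0) gave 1 with no filter, 25 with DESeq2, 1 with the replicate block and 0 to 2 leaving out a library. In normal kidney with only the compared groups, Krt5, Krt14, Krt15, Krt17 and Krt20 did not pass the filter.

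Signs that changed in the obstructed genotype comparison, in the order limma-voom, replicate block, without those 2 libraries: Krt5 0.62, 0.55 and 0.72, Krt14 0.17, 0.21 and 0.39, and Krt19 0.0268, 0.0655 and 0.13. Krt18 was -0.00870 and Krt23 -0.0638 without the 2 libraries, and Krt7 was 0.0034 with RLE scaling and 0.0034 with DESeq2. For the interaction, Krt7 was -0.0112 and Krt8 -0.0274 with the replicate block, and without the 2 libraries Krt8 was -0.0285 and Krt17 0.14. Leaving out a library each time, ranges that crossed 0 were, in obstructed kidney, Krt5 -0.90 to 1.29, Krt7 -0.13 to 0.14, Krt14 -1.16 to 0.98, Krt15 -0.22 to 0.74, Krt18 -0.0622 to 0.26, Krt19 -0.30 to 0.39 and Krt23 -0.0156 to 0.24, in normal kidney Krt17 -0.67 to 1.51, and for the interaction Krt7 -0.00302 to 0.26, Krt8 -0.0538 to 0.22 and Krt17 -0.92 to 1.26. Without Krt7 (chosen after seeing the data) the mean ratio of type II to type I was 2.17 in WT normal, 0.679 in WT UUO, 3.54 in SMOC2 normal and 0.704 in SMOC2 UUO.

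Replicate numbers did not pair libraries (correlations of deviations -0.100 to 0.132 for shared numbers, -0.105 to 0.114 for others), and the replicate block kept all calls among the keratins but Krt15 in wild type (log2 2.11, adjusted p = 0.0607, edgeR). Depth limits the basal keratins and Krt20 in normal kidney, where groups held as few as 3 counts.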
